A study of Mus musculus with 6 samples.

Results

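The genes described here were 35 genes of fatty acid oxidation and of the response to the nuclear receptor PPARA, taken by symbol from the 23284 genes counted in each library. All 35 symbols were in the files. They fall into 14 mitochondrial genes (4 of the carnitine shuttle and 10 of beta-oxidation), 7 peroxisomal genes, 4 microsomal genes of the Cyp4a family, and 10 remaining genes, namely 4 acyl-CoA thioesterases and 6 other PPARA targets and signals.

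Liver oxidizes fatty acids in several compartments. Carnitine carries long-chain acyl groups into mitochondria, where beta-oxidation shortens them to acetyl-CoA. Peroxisomes shorten very long chains, and Cyp4a enzymes of the microsomal membrane hydroxylate the terminal (omega) carbon. PPARA binds DNA together with RXR, is switched on by fatty acids, as in fasting, and raises transcription of many of these genes in rodent liver.

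The samples were livers of 8-week-old mice of strain C57BL6/J, 3 labelled wild type and 3 labelled Trim24 -/-, a homozygous knockout. Trim24 encodes a cofactor of nuclear receptors, and the series title links its loss to fat accumulation and carcinoma in liver. No treatment, sex or feeding state is in the labels used here, nor how the allele was made, whether controls were littermates, or whether each library came from a separate mouse. The p-values therefore measure the spread between these libraries, which may be technical.

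Wild type libraries are called WT1, WT2 and WT3 and knockout libraries KO1, KO2 and KO3, after the numbers in their labels, and values by library are given in that order. Between 1495583 and 2872421 reads per library lay in genes, 4.22% to 6.69% of those counted, and a count of 3 stood for 1.04 to 2.10 CPM (the count per 1000000 reads of the tested genes, with TMM factors). Trim24 had 31, 45 and 44 counts in wild type and 3, 2 and 2 in knockout (log2 fold change -4.46, edgeR adjusted p = 2.1e-05). The 20 hepatocyte markers, albumin included, were all expressed, at a summed 180171 to 192019 CPM in wild type and 140493 to 174031 CPM in knockout, lowest in KO2. The list of 20 pancreatic acinar genes, of which Prss1 and Amy2a5 were at 0, had a sum of 1011 CPM in KO1, 663 CPM in KO3 and 12.5 to 39.8 CPM in the remaining libraries. Bulk RNA cannot tell fewer cells of a type from less RNA per cell.

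The comparison of mitochondrial, peroxisomal and microsomal oxidation genes between wild type and knockout liver gave no gene past the threshold. Of the 35 genes, 30 passed the filter on low counts, and none was called higher or lower at an edgeR quasi-likelihood adjusted p under 0.05. Over all 9180 tested genes, 2.65% were called lower and 3.08% higher. At an unadjusted p under 0.05, 8 of the 30 were lower and 0 higher, against 9.97% and 10.3% of all tested genes. With limma-voom 0 of the 30 passed, with DESeq2 only Acaa1b, and with the edgeR exact test Acaa1b and Acadl, all of them lower in knockout.

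The estimates nevertheless lay mostly on the lower side. A negative fitted change was found for 27 of the 30 genes, against 49.2% of all tested genes, and the median log2 fold change (knockout minus wild type) was -0.25 against 0.01 for all tested genes. The 20 hepatocyte markers had a median of -0.20, with 15 negative. Of them 1 was called lower and 0 higher, against 2.65% and 3.08% of all tested genes. Scaling on these markers takes them as unchanged, which they may not be. When libraries were scaled on those hepatocyte markers instead, 13 of the 30 were negative, their median was 0.01 and that of all tested genes was 0.29. The gap between the oxidation genes and all tested genes was -0.26 with TMM factors and -0.27 with hepatocyte scaling. Scaling moves all genes of a library by the same factor, so this gap was nearly fixed in advance and is no separate evidence. The sign of the median thus depended on the scaling.

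**Figure D1:**
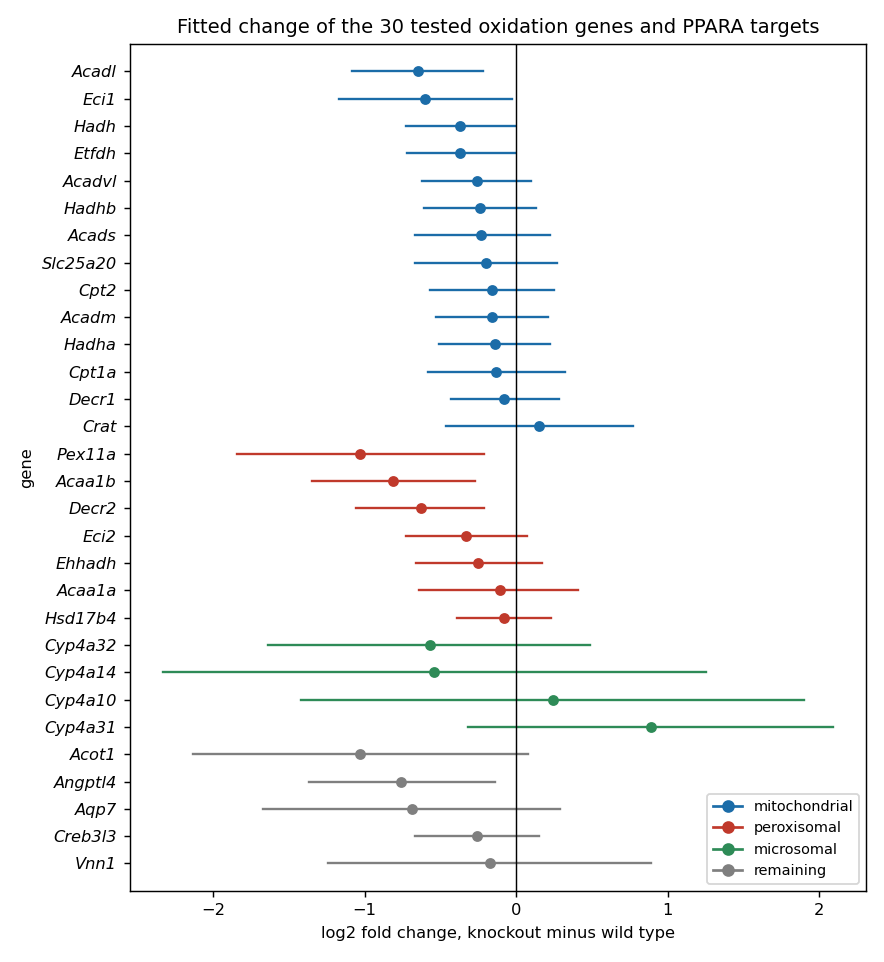
Fitted log2 fold change (points, knockout minus wild type) and its 95% interval (lines) for the 30 tested genes, coloured by compartment. Of the 30 points 27 lie left of 0, and the intervals of the 4 Cyp4a genes are among the widest.

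The lower median rested most on KO2 and WT2. The median difference of the 30 genes from their wild type mean was -0.09, 0.25 and -0.17 by wild type library, and -0.06, -0.61 and -0.11 by knockout library. KO1 and KO3 thus lay inside the wild type range, and KO2 lay below it. Among the knockout libraries KO2 was the lowest for 25 of the 30 genes, and it was the lowest of all 6 libraries for 19, where 32.3% and 18.9% of all tested genes had KO2 in those places. Without KO2 the median was -0.11, and 22 of 31 tested genes were negative. Without WT2, the highest wild type library, it was -0.14, and 23 of 32 were negative. The peroxisomal genes moved less, with a median of -0.32 without KO2 and -0.28 without WT2, against -0.33 with all libraries. The mitochondrial median was -0.08 without KO2 and -0.17 without WT2, against -0.21. KO2 was also the library with the lowest hepatocyte sum, and its Kupffer cell and macrophage markers (15 of 18 tested) summed to 811 CPM, against 439 and 789 CPM in KO1 and KO3 and 275 to 499 CPM in wild type. Stellate cell markers (9 of 12 tested) summed to 529 to 567 CPM in wild type and 689 to 825 CPM in knockout, highest in KO2. Liver endothelial cell markers (15 of 15 tested) were instead lowest in KO2. They summed to 649 to 696 CPM in wild type and 575, 504 and 661 CPM in KO1, KO2 and KO3. The part of these cell type differences in the oxidation genes was not tested.

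**Figure D2:**
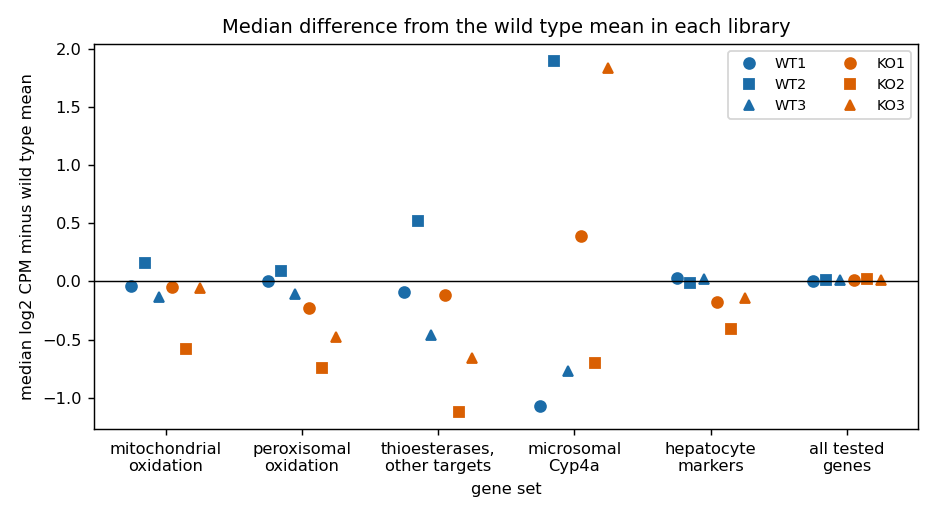
Median log2 CPM difference from the wild type mean, by library, for each group of genes, for hepatocyte markers and for all tested genes (blue wild type, orange knockout; circle, square and triangle are replicates 1, 2 and 3). KO2 (orange square) is the lowest knockout library for mitochondrial genes at -0.58 and peroxisomal genes at -0.74. For peroxisomal genes KO1 and KO3 also lie below every wild type library. The Cyp4a genes are spread from -1.07 to 1.89 with no separation of the genotypes.

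All 14 mitochondrial genes were tested and 13 had a negative estimate, with a median of -0.21 that was 0.05 with hepatocyte scaling. In the carnitine shuttle the estimates were small. Cpt1a, the enzyme that commits acyl groups to mitochondria, had 344, 438 and 322 CPM in wild type libraries and 437, 334 and 238 CPM in knockout ones. Its groups overlapped, and the log2 fold change of -0.13 (95% interval -0.58 to 0.32) turned to 0.17 with hepatocyte scaling. The carrier Slc25a20, which exchanges acylcarnitine for carnitine, had 58.7, 89.9 and 58.8 CPM in wild type libraries and 65.0, 43.4 and 71.3 CPM in knockout ones, with overlap (log2 fold change -0.20, interval -0.67 to 0.27). Cpt2, which returns the acyl group to CoA inside the mitochondrion, averaged 121 ± 8.9 and 108 ± 29 CPM in the groups (SD, n = 3 each), the low value being KO2. Carnitine acetyltransferase (Crat) was the only mitochondrial gene of the set with a positive estimate, 0.15 (interval -0.46 to 0.77).

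The acyl-CoA dehydrogenases, which take the opening step of each beta-oxidation cycle, differed among themselves in size of estimate. Long-chain Acadl had 141, 86.0 and 90.9 CPM by wild type library and 71.8, 57 and 73.1 CPM in knockout. Every knockout library was below every wild type library. The log2 fold change was -0.65 (SE 0.20) and the edgeR adjusted p was 0.076, and without WT1, the highest library, they were -0.40 and 0.27 (adjusted p over all alternatives 0.0065 to 0.27). Very-long-chain Acadvl, whose exons overlap Dvl2 on the opposite strand, was at 363 ± 28 and 302 ± 53 CPM (SD, n = 3 each). Medium-chain Acadm was at 327 ± 27 and 293 ± 58 CPM, and short-chain Acads at 39.0 ± 3.9 and 33.2 ± 7.2 CPM. The groups of these other dehydrogenases overlapped. Etfdh, which passes their electrons to ubiquinone, had 245, 304 and 244 CPM in wild type libraries and 230, 173 and 212 CPM in knockout ones, with no overlap, but a log2 fold change of only -0.37 (adjusted p = 0.23).

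In the later steps of the cycle no gene passed either. Hadha and Hadhb encode the subunits of the mitochondrial trifunctional protein. Hadha had 502, 448 and 416 CPM in wild type libraries and 465, 328 and 444 CPM in knockout ones, and Hadhb had 129, 163 and 126 CPM and 135, 96.1 and 124 CPM. In either gene KO2 was the lowest library and KO1 and KO3 lay within or close to the wild type values. The log2 fold changes were -0.14 (interval -0.51 to 0.22) and -0.24 (interval -0.61 to 0.13). Hadha overlaps Garem2 on the opposite strand. Hadh, the short-chain hydroxyacyl-CoA dehydrogenase, had 114, 140 and 138 CPM in wild type libraries and 115, 82.5 and 106 CPM in knockout ones (log2 fold change -0.37, adjusted p = 0.23). Eci1, which shifts double bonds of unsaturated chains, had 30, 36.4 and 20.2 CPM and 18, 14.7 and 23.3 CPM (-0.60, adjusted p = 0.23). KO3 lay above WT3 for Eci1, and KO1 above WT1 for Hadh. Decr1, the reductase that clears conjugated double bonds, was close in the groups, at 115 ± 21 and 109 ± 5 CPM (SD, n = 3 each).

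Hadha and Hadhb start back to back, with 272 bases between the starts listed by RefSeq on GRCm38.p6, so that the bases in between lie upstream of either gene. The windows of 250 bases before each start share 228 bases. The 250 bases before Hadhb (chr5:30155003-30155252, plus strand) are shown because the paired subunits share this stretch. No capitals are set, since the motif described further below was not found there.
Hadhb upstream: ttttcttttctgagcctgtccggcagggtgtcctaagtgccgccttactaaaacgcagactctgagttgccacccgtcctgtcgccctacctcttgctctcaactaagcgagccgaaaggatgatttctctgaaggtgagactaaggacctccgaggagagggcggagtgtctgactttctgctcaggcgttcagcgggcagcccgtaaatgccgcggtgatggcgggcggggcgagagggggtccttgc

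All 7 peroxisomal genes were tested and all 7 had a negative estimate, with a median of -0.33 that was -0.05 with hepatocyte scaling. Acaa1b, a peroxisomal thiolase, had 191, 112 and 113 CPM by wild type library and 96.0, 51.0 and 89.4 CPM in knockout. No knockout library reached the lowest wild type library. Its log2 fold change was -0.81 (SE 0.25), the edgeR adjusted p was 0.076, and it passed the threshold with DESeq2 (adjusted p = 0.043) and without KO1 (adjusted p = 0.046). Without WT1 the log2 fold change was -0.51 and the adjusted p was 0.28, and over all alternatives the adjusted p ran from 0.00022 (no filter) to 0.28. Its paralog Acaa1a, at 25.4 ± 2.5 and 23.6 ± 6.9 CPM (SD, n = 3 each), had overlapping groups.

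The thiolase pair is alike in sequence, which bears on how reads are divided between its genes. Coding sequences of Acaa1a and Acaa1b in GENCODE M21 were 96.5% identical, and 38.1% of all stretches of 50 bases in Acaa1b occurred unchanged in Acaa1a. The number of reads with more than 1 alignment was 0 in every file, and nothing in the labels says whether such reads were dropped earlier. Coding bases 592 to 681, the middle of Acaa1a, are shown with capitals in Acaa1b at the 2 bases that differ.
Acaa1a: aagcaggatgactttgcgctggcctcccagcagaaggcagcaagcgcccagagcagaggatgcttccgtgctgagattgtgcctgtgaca
Acaa1b: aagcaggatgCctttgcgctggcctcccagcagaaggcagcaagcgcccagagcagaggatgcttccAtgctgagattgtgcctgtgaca
Acaa1b also overlaps Dlec1 on the opposite strand.

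Of the other peroxisomal genes, Decr2, the peroxisomal dienoyl-CoA reductase, had 183, 294 and 265 CPM in wild type libraries and 194, 144 and 142 CPM in knockout ones. KO1 was above WT1, so the groups overlapped. The log2 fold change was -0.63 (SE 0.20, edgeR adjusted p = 0.077), with adjusted p = 0.039 without WT1, 0.032 without KO1 and 0.27 without WT2 (0.0065 to 0.31 over all alternatives). Pex11a, which promotes peroxisome division and is a PPARA target, had the most negative estimate of the peroxisomal genes, -1.03 (SE 0.38, adjusted p = 0.14), from low counts. These were 15, 21 and 18 in wild type and 14, 5 and 17 in knockout, or 10.5, 13.9 and 10.7 CPM against 8.67, 2.71 and 5.91 CPM, with no overlap. Ehhadh, a bifunctional enzyme and well-known PPARA target, was at 260 ± 12 and 219 ± 62 CPM (SD, n = 3 each), and KO3 was the highest of all 6 libraries. Hsd17b4, the other bifunctional enzyme, had 373, 350 and 382 CPM in wild type libraries and 350, 324 and 369 CPM in knockout ones, an SD within genotype of only 0.08 on the log2 scale. Its log2 fold change was -0.08 (interval -0.39 to 0.23), and 0.01 when scaled on library size alone. Eci2, an isomerase for unsaturated chains, was at 68.1 ± 14.5 and 54.4 ± 7.0 CPM.

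**Figure D3:**
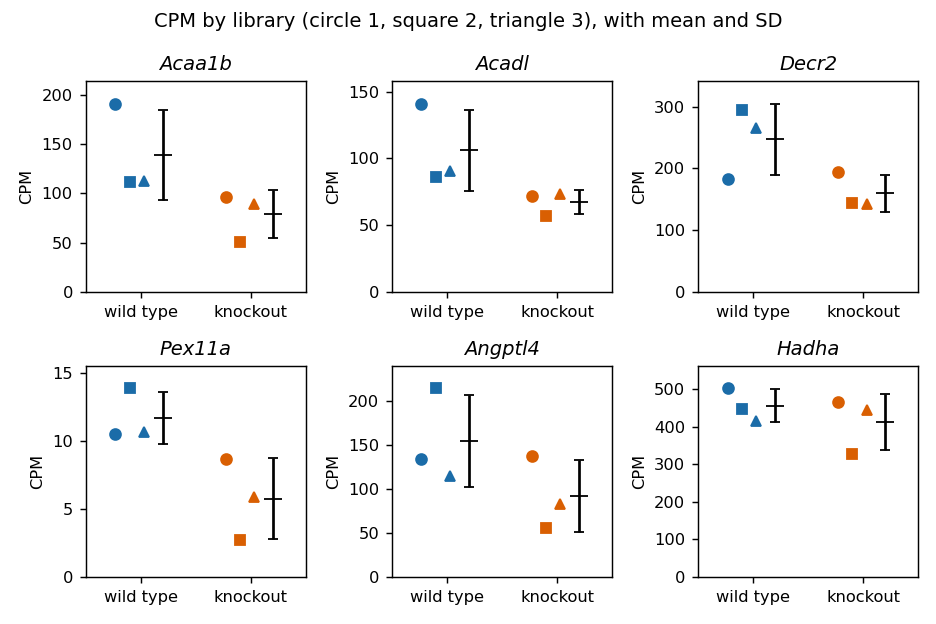
CPM of 6 genes in each library (blue wild type, orange knockout; circle, square and triangle are replicates 1, 2 and 3), with the mean and SD in black. For Acaa1b, Acadl and Pex11a every knockout library is below every wild type library, while for Decr2, Angptl4 and Hadha the groups overlap.

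Over the 30 genes, 4 (Acadl, Etfdh, Acaa1b and Pex11a) had every knockout library below every wild type library and 0 had the reverse. Over all tested genes the shares were 12.6% and 12.4%. The 4 of 30 is close to that share.

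The microsomal Cyp4a genes varied widely between libraries of the same genotype. Cyp4a10, the PPARA-responsive fatty acid omega-hydroxylase, had 47, 647 and 77 counts in wild type and 274, 83 and 1085 in knockout, or 32.8, 428 and 45.7 CPM and 170, 45.0 and 377 CPM. The highest wild type library was thus 13-fold above the lowest, and the highest knockout library 8.38-fold above the lowest. Cyp4a14 had 8.38, 125 and 4.75 CPM in wild type libraries and 19.8, 8.68 and 60.5 CPM in knockout ones, a 26.3-fold range within wild type. Cyp4a31 had 10.5, 38.4 and 10.1 CPM and 26.0, 11.4 and 66.4 CPM. Cyp4a32 had 6.99, 48.3 and 12.5 CPM and 16.7, 13 and 15.7 CPM. WT2 was the highest wild type library and KO2 the lowest knockout library for all 4 genes, and KO3 was the highest knockout library for 3 of them.

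Within-genotype SDs of log2 CPM were 1.78 for Cyp4a10 and 1.93 for Cyp4a14, and only 4 and 2 of the 9180 tested genes had a larger SD. Counting error at the lowest count would give about 0.21 and 0.51. The SDs were 1.13 for Cyp4a31 and 0.96 for Cyp4a32, where counting error at the lowest count gives 0.37 and 0.46, and the median over all tested genes was 0.26. In the reported fit none of the 4 differed between genotypes beyond this spread. Cyp4a31 passed with no filter (log2 fold change 0.87, edgeR adjusted p = 0.011), the 1 higher call among the 5 genes called there. Over all alternatives its adjusted p ran from 0.011 to 0.96. The log2 fold changes were 0.24 for Cyp4a10 (interval -1.42 to 1.90), -0.54 for Cyp4a14 (-2.33 to 1.25), 0.89 for Cyp4a31 (-0.32 to 2.09) and -0.57 for Cyp4a32 (-1.64 to 0.49). The intervals allow a change of more than 2-fold in at least 1 direction for each gene. Leaving out WT2 moved the median of the 4 from -0.15 to 2.03, and the estimate for Cyp4a10 ran from -0.66 without KO3 to 2.33 without WT2 (adjusted p = 0.075, and 0.075 to 0.98 over all alternatives).

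**Figure D4:**
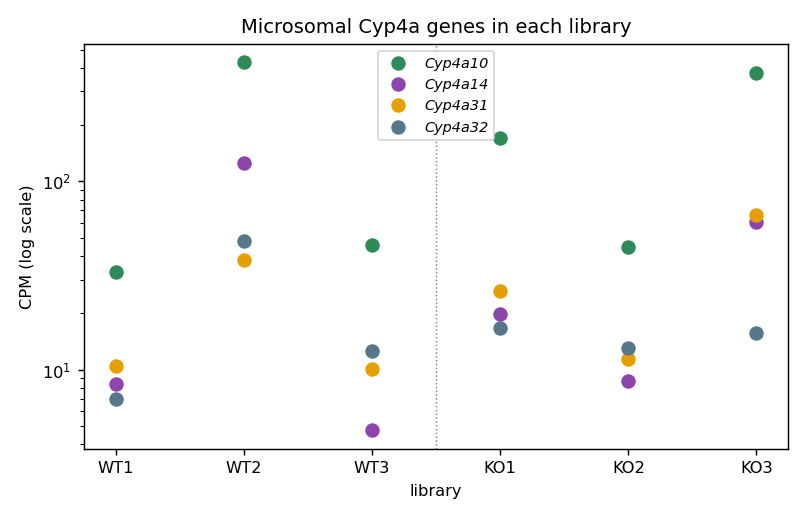
CPM of the 4 Cyp4a genes in each library, on a log axis, with the dotted line between wild type and knockout. Cyp4a10 reaches 428 CPM in WT2 and 377 CPM in KO3 and is at 32.8 to 45.7 CPM in WT1, WT3 and KO2.

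The Cyp4a genes lie on chromosome 4, and 3 of them are nearly identical in coding sequence. Reads may thus be split among those 3, and their values may not be independent measurements, which was not tested. In coding sequence Cyp4a10 was 96.6% identical to Cyp4a31 and 97.2% to Cyp4a32, and 19.5% and 34.8% of their stretches of 50 bases were shared unchanged with Cyp4a10. Cyp4a14 was 77.6% identical to Cyp4a10 and shared no such stretch (0%). Coding bases 721 to 810 of Cyp4a10 are shown with the matching stretch of each paralog, capitals marking the bases that differ from Cyp4a10, of which Cyp4a31 has 3, Cyp4a32 has 2 and Cyp4a14 has 21.
Cyp4a10: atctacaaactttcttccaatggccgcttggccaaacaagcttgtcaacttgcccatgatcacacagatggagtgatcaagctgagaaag
Cyp4a31: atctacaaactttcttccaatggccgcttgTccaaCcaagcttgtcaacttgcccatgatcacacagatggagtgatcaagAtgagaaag
Cyp4a32: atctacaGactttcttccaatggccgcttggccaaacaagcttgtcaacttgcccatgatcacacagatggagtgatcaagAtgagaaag
Cyp4a14: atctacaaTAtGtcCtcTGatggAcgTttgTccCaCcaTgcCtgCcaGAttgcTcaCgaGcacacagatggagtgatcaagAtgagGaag

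Of the 10 remaining genes 5 were tested, all 5 with a negative estimate and none past the threshold. Angptl4, a secreted inhibitor of lipoprotein lipase and PPARA target, had 134, 214 and 115 CPM by wild type library and 137, 55.9 and 82.8 CPM in knockout. KO1 lay within the wild type values and KO2 and KO3 below them. The log2 fold change was -0.76 (SE 0.29, edgeR adjusted p = 0.15), with adjusted p = 0.017 without KO1 and 0.48 without WT2 (0.0007 to 0.48 over all alternatives). Creb3l3, a liver transcription factor of the fasting response, had 147, 220 and 188 CPM in wild type libraries and 182, 122 and 159 CPM in knockout ones, with overlap (-0.26, interval -0.67 to 0.15). Aqp7, a glycerol channel better known from fat tissue, had 16.8, 17.2 and 10.1 CPM in wild type libraries and 18.6, 5.97 and 4.52 CPM in knockout ones (-0.69, interval -1.67 to 0.29). KO1 was its highest library, and without KO1 its adjusted p was 0.029 (0.029 to 0.78 over all alternatives). The adipocyte markers Lep and Retn were at 0 in every library, and the 8 adipocyte markers summed to 6.29 to 17.9 CPM in wild type and 15.5 to 29.3 CPM in knockout. Vnn1, a pantetheinase induced by PPARA, had 11, 21 and 7 counts in wild type and 6, 9 and 35 in knockout (-0.17, interval -1.24 to 0.89).

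The thioesterases, which release free fatty acids from acyl-CoA, were near the limit of detection. Cytosolic Acot1 had 14, 32 and 9 counts in wild type and 15, 4 and 18 in knockout, or 9.78, 21.2 and 5.34 CPM and 9.29, 2.17 and 6.26 CPM. The log2 fold change was -1.03 (interval -2.13 to 0.08, edgeR adjusted p = 0.29), and KO2 was again the lowest library. Mitochondrial Acot2 was under the filter with 10, 7 and 3 counts in wild type and 10, 3 and 13 in knockout. Peroxisomal Acot4 had 9, 9 and 7 and 14, 10 and 7 counts, and peroxisomal Acot3 had 0, 1 and 1 counts in wild type and 1, 0 and 2 in knockout. Acot1 and Acot2 were 95.5% identical in coding sequence, and exons of Acot3 and Acot4 overlap Gm49366 on the same strand and 4732463B04Rik on the other, so reads may be split among them.

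The other untested genes were signals that fasting raises in liver. Pdk4, the kinase that shuts the pyruvate dehydrogenase complex, had 3, 11 and 4 counts in wild type and 8, 7 and 15 in knockout. Fgf21, the fasting hormone of liver, had 1 count in WT3 and 0 in the other 5 libraries. Both were under the filter, and counts this low would hide all but a large difference. In Fgf21 a fall could not be seen at all.

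Other genes of the pathway, listed by function, were measured beside these. Of 104 listed genes 91 were tested, 11 fell and 3 rose at an edgeR adjusted p under 0.05, against 2.65% and 3.08% of all tested genes. A negative estimate was found for 76 of the 91 (median -0.32), against 49.2% of all tested genes. Every knockout library lay below every wild type library for 38 and above for 4, against 12.6% and 12.4% of all tested genes. At an unadjusted edgeR p under 0.05, 32 were lower and 5 higher, against 9.97% and 10.3%. With hepatocyte scaling 49 were negative (median -0.04) and 7 were called, and without WT2 the calls numbered 4. Ppara itself, the receptor, had 234, 340 and 235 CPM in wild type libraries and 311, 199 and 132 CPM in knockout ones. Its groups overlapped (log2 fold change -0.34, adjusted p = 0.51).

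Among 22 other peroxisomal genes, 19 were tested and 3 fell, where 2.65% of all tested genes were called lower. All 19 had a negative estimate (median -0.48), against 49.2% of all tested genes, and 13 did with hepatocyte scaling (median -0.22). The 3 that fell were the fatty acyl-CoA transporter Abcd3, Hacl1 of alpha-oxidation and the acetyl-CoA thioesterase Acot12. Abcd3 went from 514 ± 19 to 328 ± 51 CPM and Hacl1 from 400 ± 37 to 212 ± 73 CPM. For Acot12 the values were 120 ± 12 and 64.1 ± 27.7 CPM (SD, n = 3 each). Acot12 is better known as a cytosolic enzyme and overlaps 4833422C13Rik on the opposite strand. None of the 3 passed with hepatocyte scaling (adjusted p = 0.18, 0.056 and 0.12) or when WT1, WT2, WT3 or KO2 was left out, and Abcd3 and Acot12 did not pass without KO3 (adjusted p up to 0.11, 0.11 and 0.15 over the libraries left out).

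Among genes of fatty acid entry and its control, Acacb, the acetyl-CoA carboxylase whose product malonyl-CoA blocks Cpt1a, fell from 90.9 ± 3.7 to 40.1 ± 12.2 CPM (SD, n = 3 each; log2 fold change -1.17, SE 0.21, edgeR adjusted p = 0.0047). It passed under every alternative run (adjusted p up to 0.029). Acsl3, an acyl-CoA synthetase, rose from 27.8 ± 3.3 to 49.4 ± 11.6 CPM (adjusted p = 0.036), a call kept without KO1 but lost without each other library (adjusted p up to 0.14). Its exons overlap Utp14b on the same strand, as those of Hacl1 overlap Gm49387. The phosphatidate phosphatases Lpin1 and Lpin2, of which Lpin1 also acts with PPARA on transcription, fell from 793 ± 143 to 427 ± 87 CPM and from 464 ± 127 to 235 ± 45 CPM (adjusted p = 0.014 and 0.015). Neither passed without WT2, WT3 or KO2, or with hepatocyte scaling (adjusted p = 0.082 and 0.056), and Lpin1 did not pass without KO3.

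In omega-oxidation the microsomal Cyp4v3, a fatty acid omega-hydroxylase of another Cyp4 subfamily, rose from 706 ± 48 to 1983 ± 307 CPM (SD, n = 3 each; log2 fold change 1.49, SE 0.16, edgeR adjusted p = 0.00013). Its counts were 1079, 996 and 1190 in wild type and 3720, 3115 and 5622 in knockout. It passed under every alternative run (adjusted p up to 0.0029), and its exons overlap Gm45753 on the same strand. Aldh3a2, which oxidizes fatty aldehydes, fell from 173 ± 18 to 93.9 ± 22.1 CPM (adjusted p = 0.014), a call lost without WT2 (0.067) and with hepatocyte scaling (0.051). The other 8 tested genes of this list did not pass, so 1 of 10 fell and 1 rose, against 2.65% and 3.08% of all tested genes. A negative estimate was found for 9 of the 10 (median -0.36), against 49.2% of all tested genes. With hepatocyte scaling 7 were negative (median -0.09).

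Of 19 tested genes that respond to PPARA in other ways, 3 fell and 1 rose, against 2.65% and 3.08% of all tested genes. A negative estimate was found for 13 of the 19 (median -0.25), against 49.2% of all tested genes. With hepatocyte scaling 8 were negative (median 0.03). Plin5, which ties lipid droplets to mitochondria, fell from 40.6 ± 12.5 to 16.9 ± 4.8 CPM, and Cyp8b1, the sterol 12-alpha-hydroxylase of bile acid synthesis, from 362 ± 114 to 154 ± 43 CPM (SD, n = 3 each; edgeR adjusted p = 0.014 and 0.011). Acsm3, a medium-chain acyl-CoA synthetase that overlaps Eri2 on the opposite strand, fell from 235 ± 6 to 141 ± 14 CPM (adjusted p = 0.010), and did not pass with hepatocyte scaling (0.12). Slc16a5, a monocarboxylate transporter that overlaps Gm11695 on the opposite strand, rose from 6.48 ± 4.81 to 22.3 ± 1.1 CPM (adjusted p = 0.021). Calls were lost without WT2 for Plin5 (0.072 at most, and also on leaving out WT3, KO2 or KO3) and Cyp8b1 (0.055). Slc16a5 lost its call when WT1, KO2 or KO3 was left out (0.062 at most). The droplet coat gene Plin2 was at 222 ± 98 and 196 ± 40 CPM and did not pass.

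**Figure D5:**
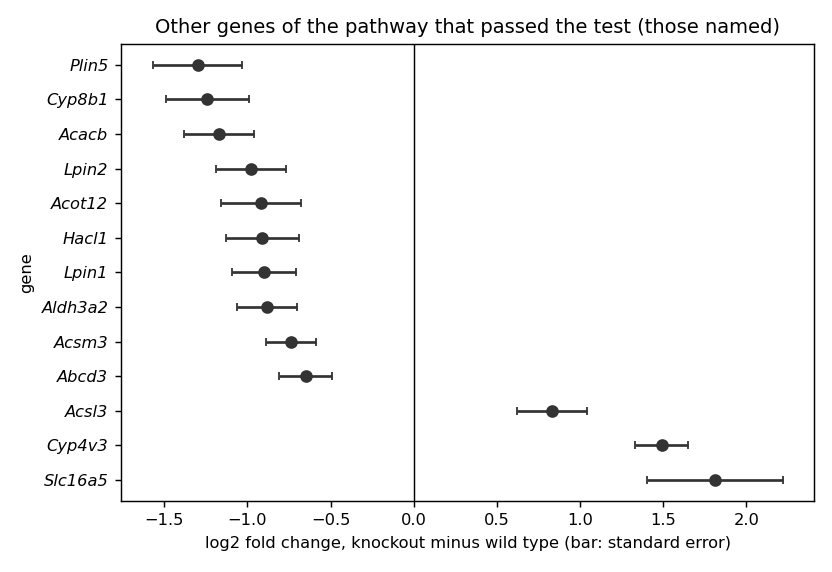
Log2 fold change (points, knockout minus wild type) with its standard error (bars) for the other pathway genes named here that passed the test. The genes that fell lie left of 0, from -1.30 for Plin5 to -0.65 for Abcd3, and Acsl3, Cyp4v3 and Slc16a5 lie right of it at 0.83, 1.49 and 1.81.

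Upstream sequence was searched for the repeat that PPARA and RXR bind, spelled as AGGTCA, any 1 base, then AGGTCA again, on both strands, with at most 2 mismatches at the 12 fixed letters. RefSeq promoters (GRCm38.p6) matched 27 of the 35 genes by symbol, and the 250 bases before the start were used. Crat, Decr1, Hsd17b4, Cyp4a10, Cyp4a14, Cyp4a31, Vnn1 and Angptl4 had no listed promoter. The search thus says nothing of these genes, several of them PPARA targets. A match was found for 3 of the 27 genes (Acot4, Aqp7 and Creb3l3; 11.1%) and for 3.18% of 27025 genes with a promoter in that table. With at most 1 mismatch 0 of the 27 had a match, against 0.466% of all. AGGTCA alone, which lies inside every exact repeat, was found in 6 of the 27 (22.2%) and in 13.8% of all. The 250 bases before the start of Creb3l3 (chr10:81092592-81092841, minus strand, 1 of its 2 listed starts) are shown because Creb3l3 is the most expressed of the 3, with the match in capitals from 209 bases before the start. Before the other listed start of Creb3l3 no match was found. A match in letters is not a measured binding site.
Creb3l3 upstream: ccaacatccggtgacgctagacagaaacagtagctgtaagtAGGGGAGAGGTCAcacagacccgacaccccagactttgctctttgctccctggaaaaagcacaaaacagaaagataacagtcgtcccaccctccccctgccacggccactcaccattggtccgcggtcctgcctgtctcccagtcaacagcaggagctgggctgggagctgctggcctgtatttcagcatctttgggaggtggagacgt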

How the data were processed

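Per the labels' protocols, liver RNA was extracted with TRIzol, reverse transcribed with SuperScript and made into Illumina libraries. Raw read counts per gene symbol were deposited by the authors, 1 file per library. TopHat 1.4.1, HTSeq, edgeR and mm9 are named in the submitters' processing notes, without roles. Strand setting and gene models are not given in the sources used here. Reads in no gene (93.29% to 95.76%) stayed out of library sizes and tests.

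Counts were tested by quasi-likelihood in edgeR 4.0.16 (R 4.3.3), with TMM factors, genotype as the only term and filterByExpr at a minimum count of 10. Adjusted p-values are Benjamini-Hochberg over 9180 genes, and genes were called under 0.05. Intervals are 95%, and each SE was derived from the fitted change and its F statistic. The test was also run on simulated counts, whose spread followed the trend over all genes. Such counts lack the wider spread of single genes such as Cyp4a10, so they do not check the test there. Alternatives used DESeq2 1.42.0, limma 3.58.1 (voom) and the edgeR exact test, other scalings and filters, a replicate block and libraries left out. Exon overlap and coding sequences came from GENCODE M21 (GRCm38), used with no positions because the notes name mm9.

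The genes and lists were chosen with earlier results of these data known. Values in every library (CPM, or counts for low genes, where the rule said counts) are given for genes with an unadjusted p under 0.05 or without overlap of the groups, for the most abundant gene and the largest change of each role, and for genes under the filter. Other pathway genes are named where called, with Ppara, except for results not reported here. Crat, Plin2 and the further genes printed were added for their role after values were seen.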

Additional observations from a re-analysis of the deposited data

How the results depend on the processing

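Depth limited the low genes: a count of 3 stood for 1.04 to 2.10 CPM, and 5 of the 35 oxidation genes and PPARA targets were under the filter. Over all tested genes 526 were called, with 830 for hepatocyte marker factors, 1085 with no filter, 882 at an adjusted p under 0.10, and 222 to 772 with each library left out. The split of 283 higher and 243 lower calls became 373 and 172 with library size alone and 744 and 86 with hepatocyte marker factors, which moved the median of all genes to 0.29. Of the 30 tested genes 0 were called, with 1 for DESeq2 (Acaa1b), 2 for the edgeR exact test, 5 of 35 with no filter, 3 at an adjusted p under 0.10, 2 with KO2 as the only knockout library, and 0 to 4 with each library left out (4 without KO1, all lower). Of the other pathway genes 14 were called, with 7 for hepatocyte marker factors, 28 with no filter, 22 at an adjusted p under 0.10, 25 with KO2 as the only knockout library and 4 to 23 with each library left out, lowest without WT2.

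With hepatocyte marker factors 13 of the 30 genes were negative in place of 27, and the median log2 fold change was 0.01 for all 30, 0.05 for mitochondrial and -0.05 for peroxisomal genes. With KO2 as the only knockout library, which assumes that it varies like the wild type libraries, these medians were -0.67, -0.59 and -0.74. With each library left out the median ran from -0.64 to 2.03 for microsomal and from -1.14 to -0.12 for the remaining genes, the highest without WT2 in either case. For mitochondrial genes it ran from -0.30 to -0.08 and for peroxisomal genes from -0.47 to -0.28. The sign turned with hepatocyte marker factors for Cpt1a (0.17), Slc25a20 (0.06), Hadha (0.13), Hsd17b4 (0.20), Creb3l3 (0.01) and 9 others (Cpt2, Acadvl, Acadm, Acads, Hadhb, Decr1, Acaa1a, Ehhadh and Vnn1, 0.01 to 0.20). It turned with library size alone for Hsd17b4 (0.01) and Decr1 (0.02), with limma-voom for Cyp4a14 (0.52), and with KO2 as the only knockout library for Cyp4a10 (-1.91), Cyp4a31 (-0.78) and Crat (-0.02). With each library left out it turned within -0.37 to 0.06 for Cpt1a, -0.36 to 0.03 for Slc25a20, -0.24 to 0.00 for Hadha, -0.66 to 2.33 for Cyp4a10 and -0.09 to 1.80 for Cyp4a31, and also for 8 others: Cyp4a14 (2.26), Cyp4a32 (0.61), Vnn1 (up to 0.35) and Decr1 (0.05) without WT2, Cpt2 (0.05), Acaa1a (0.06) and Acadm (0.00) without KO2, and Crat (-0.03) without WT1. Vnn1 also turned without KO1 or KO2. The cause was not tested. The promoter motif had 3 matching genes, and 0 with at most 1 mismatch.

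The replicate numbers did not pair the libraries: deviations of same-numbered libraries correlated across genes at -0.07 to 0.08. With the replicate block 545 genes were called, and 1 of the 30 (Acaa1b, adjusted p = 0.022).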

Other observations

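Per kilobase of GENCODE exon sequence, with gene models other than those behind the counts possible, the oxidation genes spanned a wide range of levels in wild type liver. Acadvl and Acadm, the very-long-chain and medium-chain dehydrogenases, were highest at 167 and 160 CPM per kb, followed by the peroxisomal Hsd17b4 at 137, Hadha at 113, Etfdh at 110 and Decr2 at 108 CPM per kb. In knockout liver the same 3 genes led, at 139, 143 and 130 CPM per kb for Acadvl, Acadm and Hsd17b4, and Decr2 was at 69.7 CPM per kb. Cyp4a10 averaged 80.0 and 93.6 CPM per kb in wild type and knockout, although its level in single libraries differed by more than that of any dehydrogenase.

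WT2 was the highest wild type library for 22 of the 30 tested genes, where 33.6% of all tested genes had WT2 in that place. It was highest for 9 of 14 mitochondrial, 4 of 7 peroxisomal and 4 of 4 Cyp4a genes, and for 5 of 5 tested genes of the remaining group. Kupffer cell and macrophage markers summed to 275, 499 and 391 CPM by wild type library, and adipocyte markers to 6.29, 17.9 and 11.9 CPM, so that WT2 was highest in either list. Hepatocyte markers summed to 192019, 181567 and 180171 CPM and pancreatic acinar markers to 39.8, 15.9 and 12.5 CPM, with WT1 highest. The part of these lists in the place of WT2 was not tested.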
